A study of Mus musculus with 11 samples.

Results

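The genes described here are fibroblast growth factor (FGF) ligands and the genes that FGF signalling switches on to read out or restrain itself. They comprise the ligands Fgf8, Fgf9 and Fgf10, the inhibitors Spry1, Spry2, Spry4 and Dusp6, and the transcription factors Etv1, Etv4 and Etv5. Every probe set whose only gene symbol in the array annotation is one of these 10 genes was taken, which gave 17 of 45101 probe sets and 9 of 18193 genes. Spry4 had 4 probe sets, Etv5 had 3, Fgf9, Spry2 and Etv4 had 2 each, and Fgf8, Fgf10, Spry1 and Dusp6 had 1 each. Etv1 had none, because the 3 probe sets that list it also list another gene, so no Etv1 level was analysed here, although its promoters were searched for motifs.

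Expression arrays were run on RNA of ICR mouse embryos, from dissected parts of the mandibular arch, the embryonic tissue that forms the lower jaw and much of the tongue. Medial groups held 1 array at E9.7 (embryonic day), 3 at E10.5, 2 at E11.5 and 1 at E14.5, and lateral groups held 1 array at E9.7 and 3 at E10.5. At E10.5 the medial piece was cut where the paired lingual swellings meet distally, and the lateral piece was most of what remained. All embryos were untreated and of that 1 strain, with no transgene or mutation in the labels. Each time point drew on a pool of 40 embryos, and no label says that replicate arrays came from separate pools, so p-values here measure only the spread between arrays, which may be technical. The E14.5 piece is labelled as tongue, its medial and anterior portion, so stage and dissection cannot be told apart there.

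FGF ligands bind receptor tyrosine kinases on neighbouring cells and start a kinase cascade that ends in the ERK kinases. Active ERK raises transcription of the ETS factors Etv4 and Etv5, of the Sprouty genes, whose proteins damp the cascade upstream, and of Dusp6, whose protein removes the activating phosphates from ERK. Transcript levels of the Sprouty, Dusp6 and Etv genes are therefore widely used as a readout of FGF signalling. In the mouse mandibular arch, Fgf8 and Fgf9 are made in the oral epithelium and Fgf10 in the mesenchyme, and Fgf8 is needed for the growth and patterning of the proximal jaw.

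All levels are log2 signals after quantile normalization across the 11 arrays, so 1 unit is a 2-fold difference. The median of all values was 4.86, and 2 arrays of low signal, replicate 1 of medial E10.5 (deposited median 2.37) and replicate 1 of medial E11.5 (2.47), stood apart from the other 9 (5.20 to 5.73). The same 2 arrays had the highest signals for the control probe set at the 5′ end of 18S ribosomal RNA, 11.8 and 11.4, against 7.51 to 9.32 on the other 9. Keratin and cadherin genes of epithelium and the mesenchyme genes of the arch were above the median in every group: 12 of 12 epithelial and 8 of 8 mesenchymal markers had group means at or above it throughout. Skeletal muscle markers were below it for 10 of 10 genes at E9.7 and for 0 of 10 at E11.5 and E14.5.

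At E10.5 Fgf8, Spry1, Dusp6 and 1 of 4 Spry4 probe sets were called lower in medial than in lateral tissue, by 1.87 to 3.80-fold. The brightest Spry4 probe set, 1440867_at, was 1.45-fold lower and did not pass. Of the 17 probe sets, 4 passed the test as lower (limma, Benjamini-Hochberg adjusted p under 0.05 over 45037 probe sets) and 0 as higher, where 0.577% of all probe sets passed as lower and 0.941% as higher. At an unadjusted p under 0.05 limma gave 1 member probe set as higher, where it gave 4.94% of all probe sets. The median difference over the 17 was -0.34, against -0.002 over all probe sets. In 8 of the 17 every medial array lay under every lateral array, and in 1 every medial array lay above, where the shares of all probe sets were 8.81% and 8.22%.

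Fgf8 (probe set 1451882_a_at) encodes the epithelial ligand of the proximal arch. Its level was 4.86, 4.90 and 3.51 on medial E10.5 arrays 1 to 3, against 6.53, 6.28 and 6.25 on lateral E10.5 arrays 1 to 3. The groups did not overlap, and the third medial array was the lowest of all 11. The medial mean of 4.43 ± 0.79 lay under the median of all values, against a lateral mean of 6.35 ± 0.15 (SD, n = 3 each). The difference was -1.93 ± 0.34 (SE, limma adjusted p = 0.0194), a 3.80-fold lower level in medial tissue. The call was lost without lateral replicate 1, 2 or 3 (adjusted p = 0.0891, 0.0815 and 0.0747), while the difference stayed between -2.17 and -1.47 in all 6 fits that left out 1 array.

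Spry1 (1415874_at) is a Sprouty gene, an inhibitor induced by FGF signalling. Its level was 7.30, 7.29 and 7.11 on medial E10.5 arrays, against 8.53, 8.69 and 8.83 on lateral E10.5 arrays. The 3 medial arrays lay close together and under every lateral one. The difference was -1.45 ± 0.15 (SE, limma adjusted p = 0.00093), or 2.73-fold lower in medial tissue, and it passed in all 6 fits that left out 1 array.

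Dusp6 (1415834_at), the ERK phosphatase gene, read 8.24, 8.38 and 7.80 on medial E10.5 arrays, against 9.58, 9.38 and 9.42 on lateral E10.5 arrays. Again the groups did not overlap. The difference was -1.32 ± 0.18 (SE, limma adjusted p = 0.00454), 2.49-fold lower in medial tissue, and it passed in all 6 fits that left out 1 array. With each array centred on its median in place of quantile normalization it was -1.11 and did not pass (adjusted p = 0.196).

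Spry4, a second Sprouty gene, had 4 probe sets. Probe set 1445669_at read 4.01, 4.35 and 4.32 on medial E10.5 arrays, against 5.19, 5.14 and 5.06 on lateral E10.5 arrays, a difference of -0.90 ± 0.14 (SE, limma adjusted p = 0.00884). All medial values were under the median of all values and all lateral ones above it. The other 3 probe sets had differences of -0.80 (1422021_at), -0.53 (1440867_at) and -0.34 (1422020_at), none of which passed (adjusted p = 0.26, 0.347 and 0.536). Thus all 4 probe sets had the same sign, and 1 passed. The call of 1445669_at was lost without lateral replicate 1 or 2 (adjusted p = 0.0507 and 0.0618) and with arrays centred on their medians (0.162).

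The third Sprouty gene, Spry2, did not pass. Its brighter probe set, 1436584_at, read 7.68, 7.05 and 6.56 on medial E10.5 arrays, against 7.53, 7.31 and 7.34 on lateral E10.5 arrays. The medial arrays spread over more than 1 unit and overlapped the lateral range, with the low-signal array highest. The difference was -0.30 (95% interval -0.88 to 0.28, limma adjusted p = 0.762). The other probe set, 1421656_at, lay under the median of all values on all 11 arrays, with a difference of -0.17 (adjusted p = 0.836).

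Etv4 and Etv5 encode ETS transcription factors of the PEA3 subfamily that act downstream of FGF receptors. Etv4 (1423232_at) read 6.87, 7.10 and 6.97 on medial E10.5 arrays, against 7.27, 7.21 and 7.53 on lateral E10.5 arrays. The groups did not overlap but lay close, and the difference of -0.35 did not pass (95% interval -0.86 to 0.15, limma adjusted p = 0.676). Etv5 (1428142_at) read 8.01, 8.10 and 7.33 on medial E10.5 arrays, against 8.19, 7.70 and 7.83 on lateral E10.5 arrays, with overlap. Its difference was -0.09 (95% interval -0.60 to 0.41, limma adjusted p = 0.927), and the other 2 Etv5 probe sets gave -0.36 (1420998_at) and 0.04 (1450082_s_at). The intervals of Etv4 1423232_at and of the 3 Etv5 probe sets reach down to at most -0.86, short of the differences of Spry1 and Dusp6. The second Etv4 probe set, 1443381_at, lay under the median of all values on all 11 arrays.

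The ligand gene Fgf9 had the higher E10.5 mean in medial tissue on both its probe sets. Probe set 1438718_at read 5.26, 5.30 and 5.01 on medial arrays, against 4.65, 4.55 and 4.20 on lateral arrays, with no overlap. Its difference of 0.72 ± 0.16 did not pass (SE, limma adjusted p = 0.0636). It passed under 5 of 16 alternative settings, at adjusted p between 0.013 and 0.0484, and was -0.42 with the values as deposited. The other probe set, 1420795_at, overlapped between the groups (0.21, adjusted p = 0.793). Fgf10 (1420690_at), the mesenchymal ligand gene, read 5.14, 4.95 and 4.57 on medial arrays, against 4.83, 4.62 and 4.58 on lateral arrays. These values straddle the median of all values, the groups overlap, and the difference of 0.21 did not pass (adjusted p = 0.793).

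**Figure D1:**
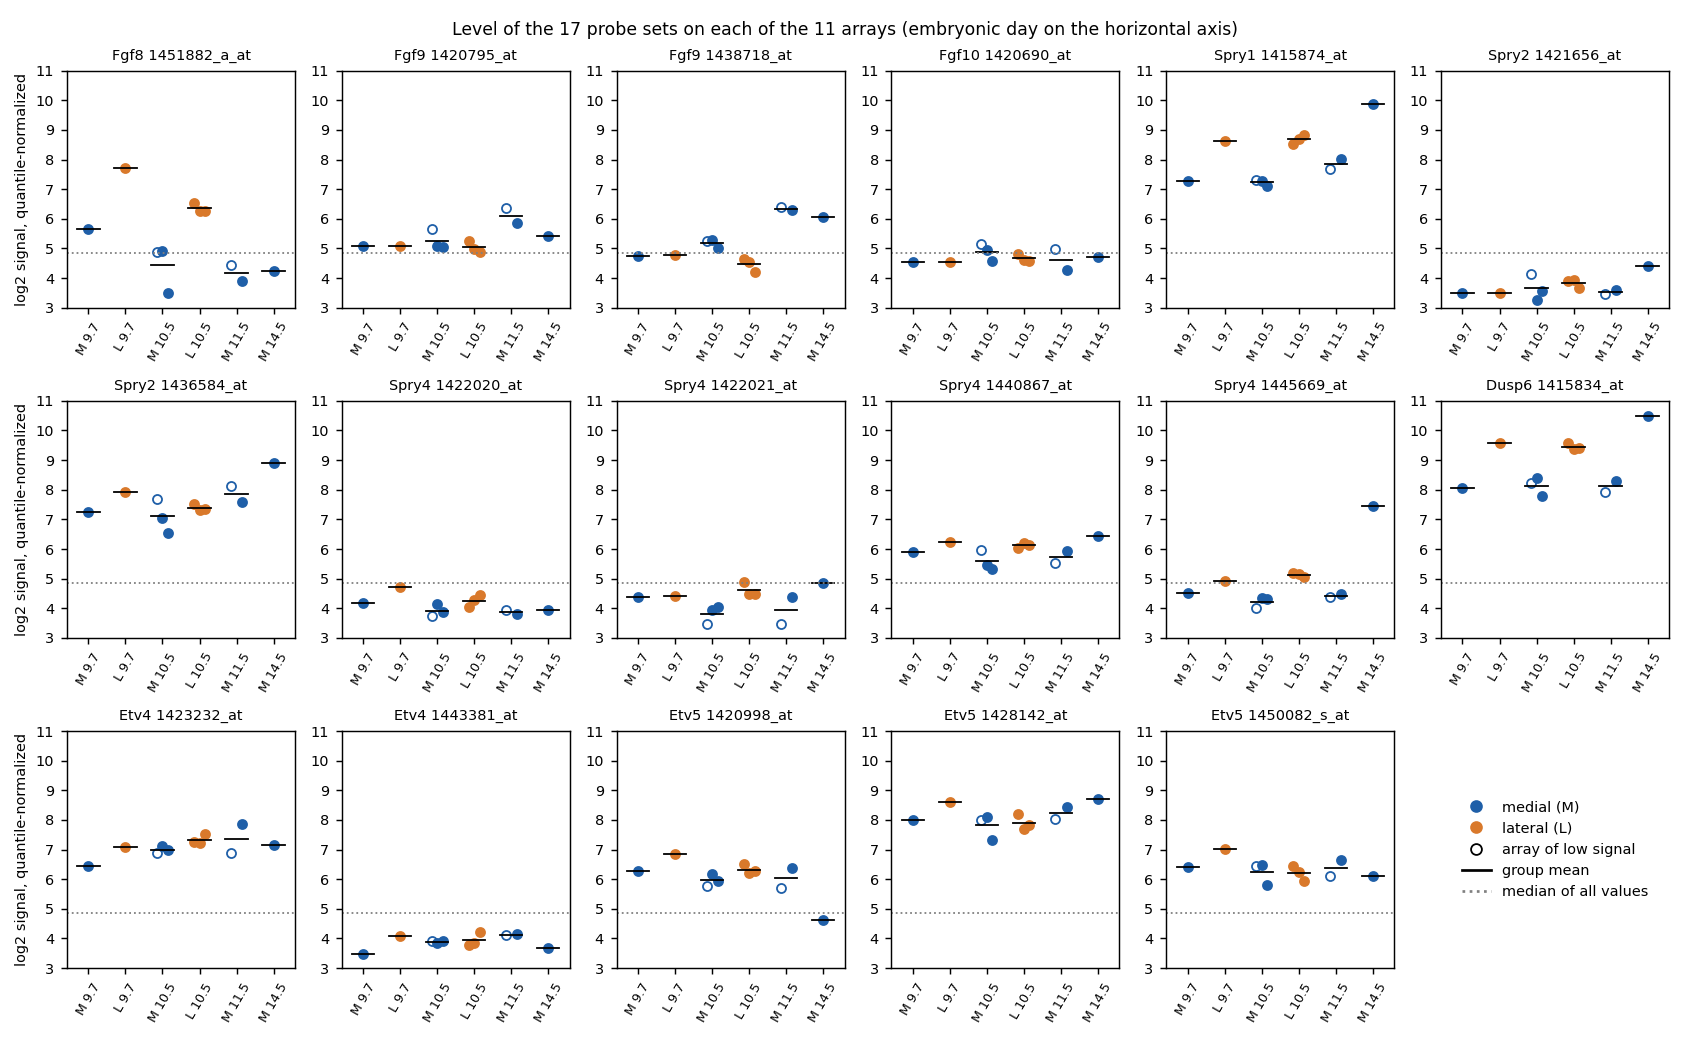
Each panel plots 1 probe set: the horizontal axis gives region (M medial, L lateral) and embryonic day, the vertical axis the quantile-normalized log2 signal, points are arrays, bars are group means and the dotted line is the median of all values (4.86). Dusp6 and Spry1 are low in medial tissue up to E11.5, high in lateral tissue and highest at medial E14.5, while Fgf9 1438718_at is highest at medial E11.5.

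Arrays were divided into 4 groups, a number set by choice, by clustering on their 45 spike-in control probe sets. The labels do not describe these groups as a batch. Within the group that held medial replicate 2 and lateral replicate 1 the medial minus lateral differences at E10.5 were -1.62 for Fgf8, -1.24 for Spry1, -0.84 for Spry4 1445669_at and -1.20 for Dusp6. Within the group that held medial replicate 3 and lateral replicates 2 and 3 they were -2.76, -1.65, -0.78 and -1.60 in the same order of genes. For these 4 probe sets every medial array lay under every lateral array, so a negative sign within each group was fixed beforehand. Only the sizes are informative here. Without the 2 arrays of low signal 5 member probe sets passed, against 4 with them, the fifth being Spry4 1440867_at (-0.72, limma adjusted p = 0.0267).

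Markers of other cell types also differed between the pieces at E10.5. Of 12 epithelial markers 6 were higher in medial tissue and 0 lower, and their summed linear signal was 3327 to 3662 on medial arrays, against 1943 to 2047 on lateral arrays. Fgf8 is itself an epithelial gene in the arch, and its level relative to these markers was not tested. Of 6 endothelial markers 2 were higher and of 4 pharyngeal endoderm markers 2 were higher in medial tissue, while 0 of 8 mesenchymal and 0 of 10 muscle markers passed in either direction (limma, 2 and 4 at an unadjusted p under 0.05). The part of these cell types in the lower Fgf8, Spry1, Spry4 and Dusp6 readings was not tested. In bulk tissue, fewer cells of a type and less RNA per cell cannot be told apart.

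**Figure D2:**
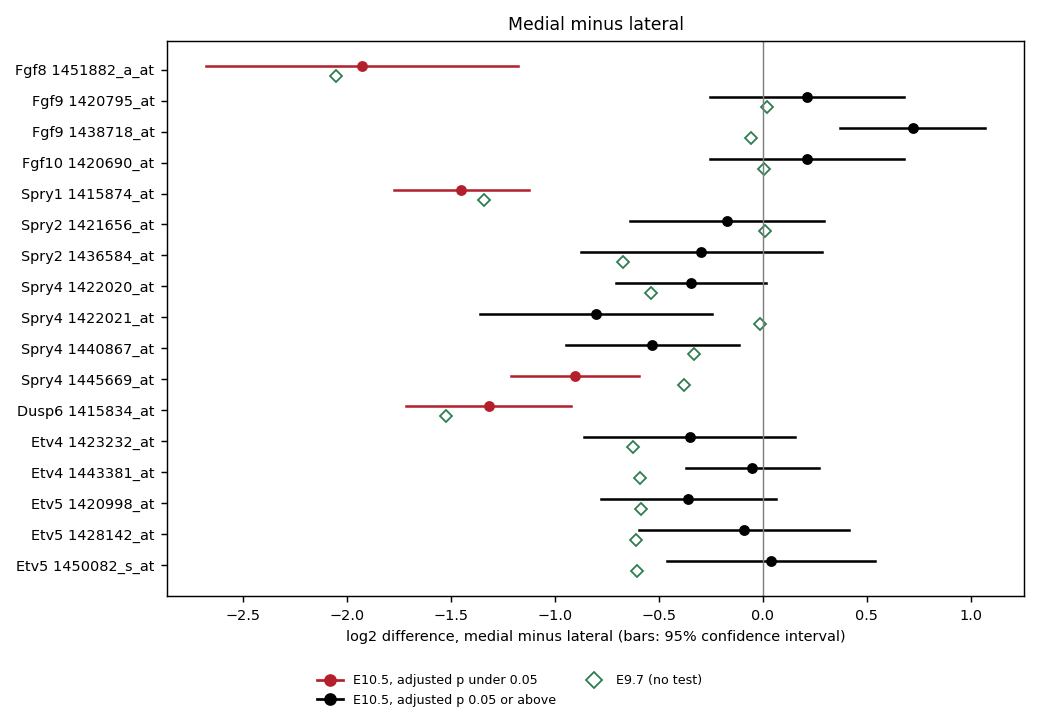
The horizontal axis is the log2 difference, medial minus lateral, for each of the 17 probe sets on the vertical axis: circles with 95% confidence intervals are E10.5 (3 against 3 arrays, red where adjusted p is under 0.05) and diamonds are E9.7 (1 against 1 array, no test). Fgf8, Spry1 and Dusp6 lie left of -1 at both stages, whereas the Etv4 and Etv5 points at E9.7 lie near -0.6 and those at E10.5 between -0.36 and 0.04.

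At E9.7, where each piece had 1 array and no test is possible, the same 3 genes stood lowest in medial tissue. Fgf8 read 5.66 in medial tissue, against 7.71 in lateral tissue, a difference of -2.05. Spry1 read 7.29 against 8.63 (-1.34), and Dusp6 read 8.06 in medial against 9.59 in lateral tissue (-1.52). These 3 of 17 probe sets were at least 2-fold lower, a size that 0.36% of all probe sets reached, and 0 were at least 2-fold higher (0.457% of all probe sets). Of the other 14, the brighter Spry2 probe set was at -0.67, Etv4 1423232_at at -0.62 and Etv5 1428142_at at -0.61. In all, 14 of 17 differences were negative and 3 positive, where 22255 of 45037 were positive over all probe sets. Some genes hold several of the 17 probe sets, so these are not 17 separate readings. The E9.7 arrays share no array with those of E10.5.

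Dusp6 and Spry1 had closely matching profiles, with a Pearson r of 0.95 over the 11 arrays, and Dusp6 and Spry4 1440867_at had an r of 0.845. Fgf8 was less like them, with an r of 0.486 with Dusp6 and 0.338 with Spry1, as its level was low at E14.5 where theirs was highest. These coefficients describe arrays that share stage, region and processing. For the 2 genes that moved together and for Fgf9, whose pattern differed from theirs, the 250 bases before the transcription start are shown from RefSeq (GRCm38.p6), 5′ to 3′ on the gene's strand. They were searched on both strands for CGGAAG and AGGAAG, hexamers of the kind that ETS factors bind, which do not overlap here, and matches are in capitals.
Dusp6 (chr10:99262981-99263230, plus strand): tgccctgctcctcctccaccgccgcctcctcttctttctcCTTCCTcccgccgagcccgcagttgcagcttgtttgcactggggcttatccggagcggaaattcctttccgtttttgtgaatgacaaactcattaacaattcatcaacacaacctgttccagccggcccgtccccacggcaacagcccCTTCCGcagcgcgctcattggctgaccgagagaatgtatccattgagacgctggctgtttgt
Spry1 (chr3:37639697-37639946, plus strand): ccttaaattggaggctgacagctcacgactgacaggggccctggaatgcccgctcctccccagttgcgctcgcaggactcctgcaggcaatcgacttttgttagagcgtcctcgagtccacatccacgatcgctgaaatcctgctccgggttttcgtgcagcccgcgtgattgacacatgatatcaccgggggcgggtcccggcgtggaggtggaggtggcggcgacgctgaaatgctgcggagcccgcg
Fgf9 (chr14:58072436-58072685, plus strand): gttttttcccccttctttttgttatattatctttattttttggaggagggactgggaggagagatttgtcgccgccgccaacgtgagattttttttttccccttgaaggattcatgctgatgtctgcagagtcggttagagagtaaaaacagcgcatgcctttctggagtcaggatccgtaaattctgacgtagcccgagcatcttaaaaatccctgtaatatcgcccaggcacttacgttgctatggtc
The Dusp6 promoter held CGGAAG on the minus strand 62 bases upstream of the start (read as CTTCCG above) and AGGAAG on the minus strand 210 bases upstream (CTTCCT). Neither hexamer was found in the Spry1 or Fgf9 stretch. Of 32851 mouse promoters of this length, 13.6% held CGGAAG and 29.5% held AGGAAG. Over the 9 promoters searched for 7 of the 10 genes, 1 held CGGAAG and 2 held AGGAAG, the second being an Etv1 start. No promoter of Fgf8, Spry4 or Etv4 was part of this search, so these counts do not cover them. A match describes letters in this window and is not a binding site.

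Between E9.7 and E10.5 the mean Fgf8 level was lower at the later stage in both pieces. In medial tissue it read 4.86, 4.90 and 3.51 at E10.5, against 5.66 at E9.7, a mean difference of -1.23 with all 3 arrays under the E9.7 reading. At least 2-fold beyond the E9.7 array on every medial array lay 0 of 17 probe sets, where 0.471% of all probe sets did in either direction. In lateral tissue 1 of 17 did so, Fgf8, with 6.53, 6.28 and 6.25 at E10.5, against 7.71 at E9.7, a mean difference of -1.36. Lateral Dusp6 (mean 9.46 at E10.5, against 9.59 at E9.7) and lateral Spry1 (mean 8.68, against 8.63) differed by -0.13 and 0.06. All 3 lateral E10.5 arrays also lay under the E9.7 reading for, among others, Spry2 1436584_at (-0.54), Spry4 1422020_at (-0.44) and the Etv5 probe sets 1428142_at (-0.70), 1450082_s_at (-0.81) and 1420998_at (-0.52). They lay above it for Fgf10 (0.14), Spry2 1421656_at (0.33), Spry4 1422021_at (0.21), Spry4 1445669_at (0.22) and Etv4 1423232_at (0.25). Of the 17 lateral mean differences 6 were positive, where 23235 of 45037 were over all probe sets. At least 2-fold lower in this comparison were 0.511% of all probe sets. None of these differences has a test, since E9.7 had 1 array in each region.

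In medial tissue from E10.5 to E11.5 the ligand gene Fgf9 rose. Probe set 1438718_at read 6.40 and 6.29 at E11.5, against 5.26, 5.30 and 5.01 at E10.5. Both E11.5 arrays lay well above every E10.5 array, and the difference was 1.16 ± 0.18 (SE, limma adjusted p = 0.00676), or 2.23-fold. The second Fgf9 probe set, 1420795_at, read 6.36 and 5.85 at E11.5, against 5.65, 5.07 and 5.03 at E10.5. It too showed no overlap, but its difference of 0.86 ± 0.23 did not pass (SE, adjusted p = 0.128), and the profiles of the 2 probe sets had an r of 0.853 over the 11 arrays. The differences of 1438718_at were 0.99 and 1.14 within the 2 groups of arrays by control probe sets that held both stages. Their sign was fixed beforehand, since the stages did not overlap. Its call was lost without medial E11.5 replicate 1 (adjusted p = 0.0629), without both low-signal arrays (0.0649) and with arrays centred on their medians (0.0894).

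That was the 1 call among 17 in the stage comparison, where 1.42% of all probe sets were called higher and 0.711% lower. The comparison shares its 3 medial E10.5 arrays with the comparison of regions. Spry1 read 7.69 and 8.01 at E11.5, against 7.30, 7.29 and 7.11 at E10.5, without overlap, and its difference of 0.61 did not pass (limma adjusted p = 0.115). Spry2 1436584_at read 8.11 and 7.60, against 7.68, 7.05 and 6.56, with overlap and a difference of 0.76 (adjusted p = 0.348). Dusp6 showed nearly the same level at both stages, with 7.94 and 8.31 at E11.5, against 8.24, 8.38 and 7.80 at E10.5, and a 95% interval of the difference from -0.46 to 0.43. Fgf8 read 4.45 and 3.89 at E11.5, under the median of all values on both arrays, and did not pass (-0.26, adjusted p = 0.903). In 5 of 17 probe sets both E11.5 arrays lay above every E10.5 array, where 10.6% of all probe sets did, and in 0 did both lie under (also 10.6%). As lower, 0 members passed even at an unadjusted p under 0.05, where 5.24% of all probe sets did (limma).

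Etv4 1423232_at had a wide spread at E11.5. It read 6.88 and 7.86 on replicates 1 and 2, so the arrays of that pair lay farther apart than the E10.5 group did. Etv5 1428142_at read 8.04 and 8.43, and neither gene passed (limma adjusted p = 0.694 and 0.652). Fgf10 read 4.97 and 4.27 at E11.5, on either side of the median of all values, and did not pass (adjusted p = 0.798). At E11.5, 9 of 10 skeletal muscle markers were higher than at E10.5, with a summed signal of 4554 to 6050.5, against 201 to 238, and 7 of 12 epithelial markers were lower and 1 higher. Of 5 macrophage markers 2 were higher, of 5 neuronal markers 2 and of 4 pharyngeal endoderm markers 2, while 3 of 8 mesenchymal and 2 of 6 endothelial markers were lower. The part of these shifts in the Fgf9 result was not tested.

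**Figure D3:**
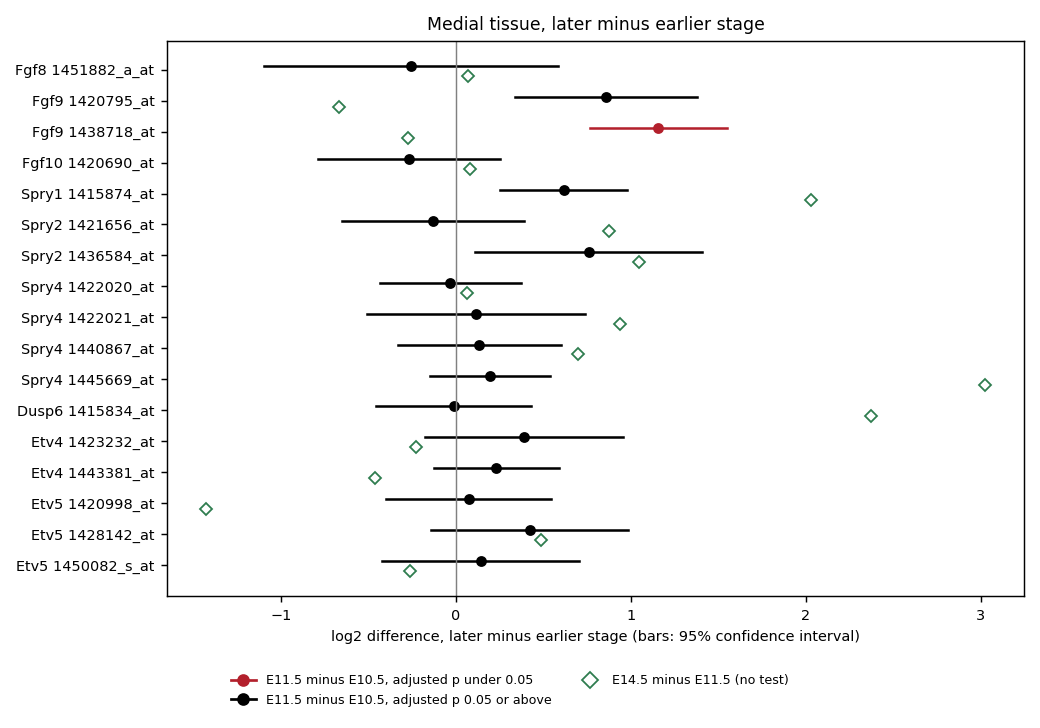
The horizontal axis is the log2 difference in medial tissue, later minus earlier stage, for the 17 probe sets on the vertical axis: circles with 95% confidence intervals are E11.5 minus E10.5 (2 against 3 arrays, red where adjusted p is under 0.05) and diamonds are E14.5 minus E11.5 (1 against 2 arrays, no test). Fgf9 1438718_at is the red point at 1.16, and the diamonds of Spry1, Dusp6 and Spry4 1445669_at lie at 2.03, 2.37 and 3.03.

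The single E14.5 tongue array had the highest reading of all 11 arrays for Spry1, Dusp6, both Spry2 probe sets, Spry4 1440867_at and 1445669_at, and Etv5 1428142_at. The share of all probe sets that were highest on this array was not computed. Dusp6 read 2.19 above the higher of the E11.5 arrays, which were at 7.94 and 8.31, and the mean difference was 2.37. Spry1 read 9.88, against 7.69 and 8.01, a mean difference of 2.03. Spry4 1445669_at read 7.45, against 4.37 and 4.47, which lie under the median of all values, and the mean difference was 3.03. The other 3 Spry4 probe sets differed by 0.94 (1422021_at), 0.70 (1440867_at) and 0.06 (1422020_at), so the size depended on the probe set.

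Etv5 split by probe set at E14.5. Probe set 1420998_at read 4.61 at E14.5, against 5.72 and 6.36 at E11.5, a mean difference of -1.43, whereas 1428142_at read 8.72, against 8.04 and 8.43. The profiles of these 2 probe sets had an r of -0.158 over the 11 arrays, which include the single E14.5 array, where they lay farthest apart. At E14.5 they thus do not give 1 Etv5 level. Fgf9 1438718_at read 6.07 at E14.5, under both E11.5 arrays, and Fgf8 read 4.24, between the E11.5 arrays. In all, 3 of 17 probe sets were at least 2-fold beyond the E11.5 arrays as higher and 1 as lower, where the shares of all probe sets were 5.88% and 5.33%. Muscle and epithelial markers differed here as well: 8 of 10 muscle and 7 of 12 epithelial markers were at least 2-fold higher at E14.5, with summed signals of 43352 for muscle, against 4554 to 6050.5 at E11.5, and of 9177 for epithelium, against 1906 to 2023. Of 5 red cell markers 4 were at least 2-fold lower. The part of cell composition in the E14.5 readings was not tested.

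Across the 6 groups the genes fell into different orders. Fgf8 was highest in lateral tissue at E9.7, then in lateral tissue at E10.5 and medial tissue at E9.7, and these 3 groups and medial E10.5 below them did not overlap. The lowest 3 groups, medial E10.5, E14.5 and E11.5, had overlapping readings between 3.51 and 4.90. Dusp6 ran from medial E14.5 through lateral E9.7 and lateral E10.5 to the medial groups of E10.5, E11.5 and E9.7, of which the last 3 overlapped. Spry1 had the same top group, with lateral E10.5 and lateral E9.7 overlapping next, then medial E11.5 apart from medial E9.7 and medial E10.5. Fgf9 1438718_at had no overlap between any neighbouring groups and ran from medial E11.5, E14.5 and E10.5 to lateral E9.7, medial E9.7 and lateral E10.5. Groups of 1 array have no spread of their own, so this order is a description. The range over the 11 arrays was smaller for some members, with 1.39 units for Etv5 1428142_at, 1.21 for Etv5 1450082_s_at and 1.08 for Spry4 1440867_at, than for Fgf8 with 4.20 and Spry1 with 2.77.

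The other genes of the pathway were read from lists, 1 probe set per gene, and 63 of 70 listed genes were measured. In the comparison of regions at E10.5, 2.22% of all genes were called in either direction. Of 19 other FGF ligands 0 passed (3 at an unadjusted p under 0.05), and 2 of the 19 had a mean at or above the median of all values. Of 10 receptors and co-receptors 1 rose, Fgfr2, an FGF receptor with epithelial and mesenchymal forms, with 9.76 in medial and 9.01 in lateral tissue (0.75 ± 0.14 SE, limma adjusted p = 0.0234). Of 11 other inhibitors 1 fell, Lrig1, which restrains receptor tyrosine kinases, with 5.84 in medial and 7.09 in lateral tissue (-1.25 ± 0.17 SE, adjusted p = 0.0051). Of 10 adaptors and kinases, and of 10 heparan sulfate enzymes and binding proteins, 0 passed (1 of each at an unadjusted p under 0.05). With 1 probe set per gene, the inhibitor genes called lower in medial tissue were thus Spry1, Dusp6 and Lrig1, while 10 of the 11 other inhibitors did not pass. Spry4 is then read from 1440867_at, which did not pass (-0.53, limma adjusted p = 0.347). Its call rests on 1 of its 4 probe sets.

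Barx1, Lhx6 and Lhx8 encode homeodomain factors of jaw mesenchyme whose expression depends on Fgf8 in the mouse. Barx1 was lower in medial tissue at E10.5, with a mean of 7.07, against 10.54 in lateral tissue (-3.47 ± 0.37 SE, limma adjusted p = 0.0012). Lhx6 was lower as well (6.71 in medial, against 8.26 in lateral tissue, adjusted p = 0.0194), while Lhx8 did not pass (-0.86, adjusted p = 0.229). At E9.7 the differences were -2.86 for Barx1, -1.54 for Lhx6 and -0.36 for Lhx8, from 1 array against 1 and so with no test.

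From E10.5 to E11.5 in medial tissue, where 3.24% of all genes were called, 1 of 19 other ligands rose, Fgf18, a ligand of skeletal development, with a mean of 5.21 at E11.5, against 3.84 at E10.5 (1.37 ± 0.14 SE, limma adjusted p = 0.00067). Among 11 other inhibitors Lrig1 rose (2.19 ± 0.19 SE, adjusted p = 0.00025) and Dusp9, a phosphatase of ERK, fell (-1.37 ± 0.15 SE, adjusted p = 0.00078). Of the receptors, adaptors and heparan sulfate genes 0 passed, with 3, 0 and 3 at an unadjusted p under 0.05. Lhx8 fell, with a mean of 5.95 at E11.5, against 9.23 at E10.5 (adjusted p = 0.00024). Barx1 (-1.31, limma adjusted p = 0.208) and Lhx6 (0.53, adjusted p = 0.629) did not pass. At E14.5, 3 of 19 other ligands and 3 of 10 heparan sulfate genes and binding proteins were at least 2-fold higher and 0 of either lower, where 5.88% of all probe sets were higher and 5.33% lower. These shares are over all probe sets, whereas the list counts use 1 probe set per gene, so the 2 are not on the same base. Of 10 receptors 1 was higher, Fgfr3 (1.62). Of 11 other inhibitors 1 was higher, Lrig1 (1.31), and 2 were lower, Cbl (-2.51) and Dusp9 (-1.46), and of 10 adaptors and kinases 0 were beyond 2-fold. None of these has a test. The ligand gene Fgf6, known from skeletal muscle, read 6.61 there, against a mean of 3.27 at E11.5, and the epithelial FGF-binding protein gene Fgfbp1 read 6.82, against 3.82.

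**Figure D4:**
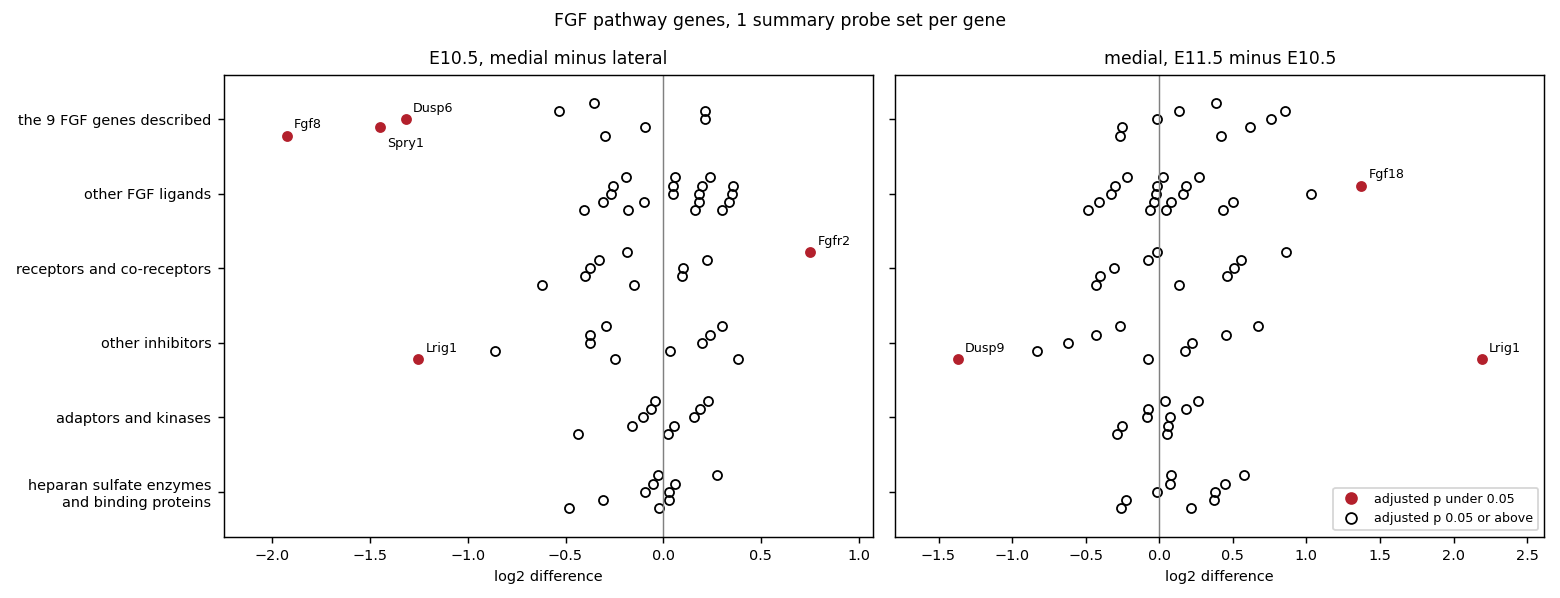
Each point is 1 gene, placed by its log2 difference on the horizontal axis (left panel medial minus lateral at E10.5, right panel medial E11.5 minus E10.5) and by list on the vertical axis, with a small vertical offset for legibility. Red points have an adjusted p under 0.05: Fgf8, Spry1, Dusp6 and Lrig1 lie left of -1 in the left panel, Fgfr2 right of 0, and in the right panel Fgf18 and Lrig1 lie right of 1 and Dusp9 left of -1.

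The genes whose levels tracked the members most closely were found by Pearson r over the 11 arrays among 11370 genes with a mean at or above the median of all values. For Fgf8 these were Prps1 (0.954), Dnajc1 (0.946), Dlx3 (0.946), Zbtb16 (0.942) and Mylk3 (0.936). For Dusp6 they were Jade1 (0.976), Vgll3 (0.957), Gsr (0.951), Col8a2 (0.943) and Nfatc1 (0.942), and without the E14.5 array the r of Jade1 was 0.969. For Fgf10, whose level ranged only from 4.27 to 5.14, the closest was Coq10b (0.886), and for Etv4 it was Aff3 (0.895). The arrays behind these coefficients share stage, region and scaling, and the highest of many coefficients is given, so they are a description of likeness only.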

How the data were processed

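RNA from mandibular arch pieces was hybridised to 11 Affymetrix arrays of 45101 probe sets, from 3 µg of total RNA each, per the labels. The authors deposited log2 signals made with Affymetrix Expression Console 1.1, per the submitters' processing notes; the algorithm is not given in the sources used here, and the log base was inferred from the range of values. The number of arrays limits the precision. Because 2 arrays had far lower medians, the deposited log2 values were quantile-normalized across the 11 arrays. Of the probe sets, 34958 had 1 gene symbol in the array annotation, 34754 of them matched to RefSeq names by Entrez ID. The limma package (3.58.1, R 4.3.3) fitted a mean for each of the 6 groups to the 45037 probe sets other than controls, leaving 5 residual degrees of freedom, with no filter on low values. Calls are Benjamini-Hochberg adjusted p-values under 0.05. Where a side had a single array, a difference was counted, with no test, if it was 2-fold or more from the nearest array on the opposite side. Gene counts use the probe set of highest mean for each gene. The genes named are the members, all pathway genes past the threshold among the lists, up to 4 others per list, Barx1, Lhx6 and Lhx8, and the 5 genes most like Fgf8, Dusp6, Fgf10 and Etv4. The members and lists were chosen with earlier results of these data known. The fit was tested on simulated data. Scaling, filters, probe set summary, variance model, array weights, arrays in the fit, replicate block, low-signal arrays, control-probe groups and single replicates were varied. Same-numbered medial and lateral E10.5 arrays deviated together with correlations of 0.108, -0.189 and 0.376, so the numbers were not taken to pair them. Between stages, same-numbered medial E11.5 and E10.5 arrays had correlations of 0.475 (replicate 1) and 0.348 (replicate 2). The main fit held no replicate block for either comparison.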

Additional observations from a re-analysis of the deposited data

Results flagged for a closer look

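In 4 cases the effect of a member lay in opposite directions on every array of 2 groups compared. None of these differences was tested, since the E9.7 groups held 1 array each. Only member probe sets were searched for such cases, and the share of all probe sets that meet the same rule was not computed. With so few arrays some probe sets can meet it by chance, so the cases are a description only. Fgf9 1438718_at was higher at E10.5 than at E9.7 in medial tissue (0.46) and lower in lateral tissue (-0.32), so the effects differed by 0.78. Seen by region, the same values give a medial minus lateral difference of 0.72 at E10.5, against -0.06 at E9.7, again 0.78 apart. Spry4 1422021_at went the other way, with -0.57 in medial and 0.21 in lateral tissue between E9.7 and E10.5, a gap of -0.78. Spry4 1445669_at had -0.30 in medial and 0.22 in lateral tissue, a gap of -0.52. The Spry4 readings lay near or under the median of all values in most of these arrays.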

How the results depend on the processing

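The 4 calls between regions at E10.5 kept their direction under every alternative run, and no called result reversed. For these 4 probe sets every medial array lay under every lateral array. Runs that compare group means of the same quantile-normalized values therefore could not change the sign, and the kept direction there is no support. With the values as deposited, where the 2 low-signal arrays shift the median of all probe sets by -0.98, 0 of 17 member probe sets passed between regions and 0 between stages (shift -0.57), and 2 and 1 of all probe sets passed, against 684 and 960, with 0% of these calls higher, against 62.0% and 66.7%. With arrays centred on their medians (shift 0.15 and 0.04), 2 and 0 member probe sets and 329 and 425 of all probe sets passed. Leaving out 1 array gave 2 to 4 members and 355 to 720 probe sets between regions, and 0 to 3 members and 659 to 1021 probe sets between stages. Between regions, array weights gave 1761 probe sets and control-probe groups as a fixed effect gave 1367, with 6 members each. Between stages, control-probe groups gave 2476 probe sets and 3 members, and the groups compared alone gave 554 probe sets. Between stages, 0 members passed with 1 probe set per gene, since Fgf9 is then read from 1420795_at, and 0 without the low-signal arrays. With the replicate number as a block, 2 members passed between stages and 5 between regions, with 980 and 813 of all probe sets: Fgf9 1438718_at then passed between regions (0.72, adjusted p = 0.0267) and 1420795_at between stages (0.76, adjusted p = 0.0438). Medial and lateral numbers did not all pair by correlation, and for the stages only 2 pairs exist. The group with the highest mean was the same on the deposited scale for 11 of 17 probe sets, and with centring for 16. The limits are few arrays, dim Fgf10, Fgf8 and Spry4 readings near the median of all values in medial tissue, and single arrays at E9.7 and E14.5.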
